A study of Mus musculus with 4 samples.

Results

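Transcript levels of 8 megakaryocyte and platelet genes were followed in mouse leukaemia cells: the receptor F2r, the chemokines Pf4 and Ppbp, the integrin chains Itga2b and Itgb3, the glycoproteins Gp1bb and Gp9, and the receptor Treml1. They were chosen by symbol. All 8 were found, in 9 transcript rows, among 22072 symbols in 28107 rows, and 6 of them reached 1 FPKM (fragments per kilobase of transcript and per M mapped fragments) in at least 1 library. All cells were bone marrow leukaemic cells of the C57BL/6 strain that carried MLL-AF9-/+, a knock-in allele joining the Mll1 gene to a partner gene. The Meis1f/f cells had the genotype Meis1f/fCreER+/- MLL-AF9-/+, with floxed Meis1 alleles and CreER, a recombinase switched on by tamoxifen compounds. The control cells had MLL-AF9-/+ and, per the labels, neither floxed Meis1 nor CreER, so recombinase activity and loss of Meis1 cannot be told apart. Cells of each genotype received 1000 nM 4-hydroxytamoxifen (4-OHT) or vehicle for 24 h, in medium with SCF, IL-6, IL-3 and GM-CSF, each at 10 ng/ml. This gave 4 libraries, 1 per group: Meis1f/f 4-OHT, Meis1f/f vehicle, control 4-OHT and control vehicle. There was therefore no replicate, no test and no p-value, and every difference below compares libraries. The number of mice, clones or cultures behind a library is not given in the labels.

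Megakaryocytes are the large bone marrow cells that shed platelets. F2r senses thrombin on human platelets, while mouse platelets rely on the related F2rl3 and F2rl2; the GPIb-IX-V complex binds von Willebrand factor, and the integrin made of Itga2b and Itgb3 binds fibrinogen and joins platelets to each other. Pf4 and Ppbp encode chemokines stored in platelet alpha granules. Several of these genes are also used outside the lineage: Itga2b marks early blood progenitors, and mast cells carry integrins with the Itgb3 chain.

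The libraries held an estimated 18.3, 42.9, 22.1 and 28.4 M mapped reads in Meis1f/f 4-OHT, Meis1f/f vehicle, control 4-OHT and control vehicle cells, and between 10051 and 10425 symbols reached 1 FPKM in a library. By sheet name, lane 1 held Meis1f/f vehicle and lane 2 the remaining 3 libraries. The highest Meis1 transcript was at 7.38 FPKM in Meis1f/f 4-OHT, 11.8 FPKM in Meis1f/f vehicle, 12.1 FPKM in control 4-OHT and 11.6 FPKM in control vehicle cells, so the library labelled as treated and floxed had the lowest level without losing the transcript. The sum of its 2 rows was 8.08, 15.5, 13.2 and 13.8 FPKM in the same libraries. In Meis1f/f cells the 4-OHT to vehicle ratio was 0.625 for the highest row and 0.521 for the sum. Checked against markers, the cells were myeloid: all 12 neutrophil markers examined reached 1 FPKM in every library. Platelet genes were mixed: 6 of the 8 genes and 15 of 24 other platelet surface receptors reached 1 FPKM in at least 1 library. Over the whole series, 10922 of 21917 symbols with a row marked OK did so. Gp6 (collagen receptor) and Tubb1 (platelet tubulin), picked after their values were seen, stayed under 1 FPKM in all 4 libraries. The highest value of either gene was 0.291 FPKM, for Gp6 in control 4-OHT cells. In bulk RNA, fewer cells of a type and less RNA per cell cannot be told apart.

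The promoters of 4 of the genes are shown because they belong to members with different patterns: F2r, Itga2b and Gp9, which were higher in Meis1f/f than in control cells, and Pf4, which was lower. Promoter sequences from RefSeq (build GRCm38.p6) were found for 7 of the 8 genes, each running from 250 bases before to 50 bases after the transcription start. They lie at chr13:95618417-95618716 (minus strand) for F2r, chr11:102469834-102470133 (minus strand) for Itga2b, chr6:87777820-87778119 (plus strand) for Gp9 and chr5:90772185-90772484 (plus strand) for Pf4. Capitals mark matches, on either strand, to short words known to be bound by lineage factors. The word TGACAG was searched for MEIS factors. For GATA factors the search took AGATAA, the variant AGATAG, the variant TGATAA and the variant TGATAG. For ETS factors it took AGGAAG and the variant CGGAAG.
F2r: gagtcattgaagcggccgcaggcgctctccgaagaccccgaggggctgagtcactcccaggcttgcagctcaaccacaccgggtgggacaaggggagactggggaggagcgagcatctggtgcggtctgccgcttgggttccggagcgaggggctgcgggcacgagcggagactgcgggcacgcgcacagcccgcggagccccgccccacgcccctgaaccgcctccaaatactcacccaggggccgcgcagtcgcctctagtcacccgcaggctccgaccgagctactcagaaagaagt
Itga2b: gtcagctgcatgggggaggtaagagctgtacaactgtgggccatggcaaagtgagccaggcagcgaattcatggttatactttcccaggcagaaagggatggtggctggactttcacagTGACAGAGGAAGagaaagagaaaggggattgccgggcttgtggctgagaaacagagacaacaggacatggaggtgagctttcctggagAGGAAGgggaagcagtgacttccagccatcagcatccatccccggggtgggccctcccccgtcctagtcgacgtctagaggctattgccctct
Gp9: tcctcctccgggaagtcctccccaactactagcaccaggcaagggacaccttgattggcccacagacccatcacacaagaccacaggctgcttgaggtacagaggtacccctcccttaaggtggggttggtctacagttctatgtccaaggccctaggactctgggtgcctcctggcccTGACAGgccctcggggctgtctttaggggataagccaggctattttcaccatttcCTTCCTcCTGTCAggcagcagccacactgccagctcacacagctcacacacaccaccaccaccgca
Pf4: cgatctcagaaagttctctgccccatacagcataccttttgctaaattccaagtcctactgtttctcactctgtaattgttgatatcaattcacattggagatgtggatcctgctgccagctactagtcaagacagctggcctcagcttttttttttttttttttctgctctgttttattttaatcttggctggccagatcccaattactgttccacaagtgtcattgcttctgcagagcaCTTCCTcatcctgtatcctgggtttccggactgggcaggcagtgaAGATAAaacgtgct

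Counting from the start site with no base 0, the Itga2b promoter held a MEIS word at -131 to -126, directly followed by an ETS word at -125 to -120, and a further ETS word at -43 to -38. The Gp9 promoter held MEIS words at -71 to -66 and, on the other strand, at -9 to -4, and an ETS word on that strand at -16 to -11. The Pf4 window held an ETS word at -9 to -4 on the other strand and a GATA word downstream of the start, at 37 to 42. The Treml1 window, of a gene too low for its libraries to be ordered, held a MEIS word at -99 to -94 on the other strand. The Gp1bb window held, all on the other strand, a GATA word at -22 to -17 and ETS words at -90 to -85 and at 21 to 26. None of these words occurred in the F2r or Ppbp windows. Such words are frequent: of 32851 mouse promoters of this length, 19.2% held the MEIS word, 29.8% a GATA word and 46.5% an ETS word. A match is a description of the letters, and binding was not measured.

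F2r, the thrombin receptor also called protease-activated receptor 1, had the highest level of the 8 genes in both Meis1f/f libraries. It was at 43.6 FPKM in Meis1f/f 4-OHT, 81.9 FPKM in Meis1f/f vehicle, 6.06 FPKM in control 4-OHT and 9.43 FPKM in control vehicle cells. Both Meis1f/f libraries lay far above both control libraries, and in each genotype the 4-OHT library was the lower. The ratio of Meis1f/f vehicle to control vehicle was 8.68 (95% exact counting interval 8.1 to 9.3), and that of Meis1f/f 4-OHT to control 4-OHT was 7.19 (6.49 to 7.96). These intervals, here and below, cover the counting of reads only and not the variation between cultures. The 4-OHT level was 0.533 of the vehicle level in Meis1f/f cells (0.51 to 0.556) and 0.643 of it in control cells (0.572 to 0.722). F2r thus was lower with 4-OHT in both genotypes, by more than counting error in each.

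The related receptors did not share that level. F2rl2, a thrombin receptor that in mouse platelets serves as a cofactor for F2rl3, was at 11.6 FPKM in Meis1f/f 4-OHT, 20.3 FPKM in Meis1f/f vehicle, 5.48 FPKM in control 4-OHT and 5.35 FPKM in control vehicle cells. Its genotype ratios were 3.8 under vehicle (3.4 to 4.25) and 2.13 under 4-OHT (1.84 to 2.46), below those of F2r. F2rl3, the protease-activated receptor 4 that transmits the thrombin signal in mouse platelets, was at 7.31, 6.09, 3.95 and 4.13 FPKM in Meis1f/f 4-OHT, Meis1f/f vehicle, control 4-OHT and control vehicle cells, a narrower range. F2rl1, the trypsin-sensing member of the family, was nearly absent: it was listed at 0 in Meis1f/f 4-OHT cells and at 0.145 FPKM in Meis1f/f vehicle cells, its highest value. F2r was the most abundant of the 4 receptor genes in all 4 libraries, but in control 4-OHT cells F2rl2 was within counting error of it, at 5.48 FPKM beside 6.06 FPKM.

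**Figure D1:**
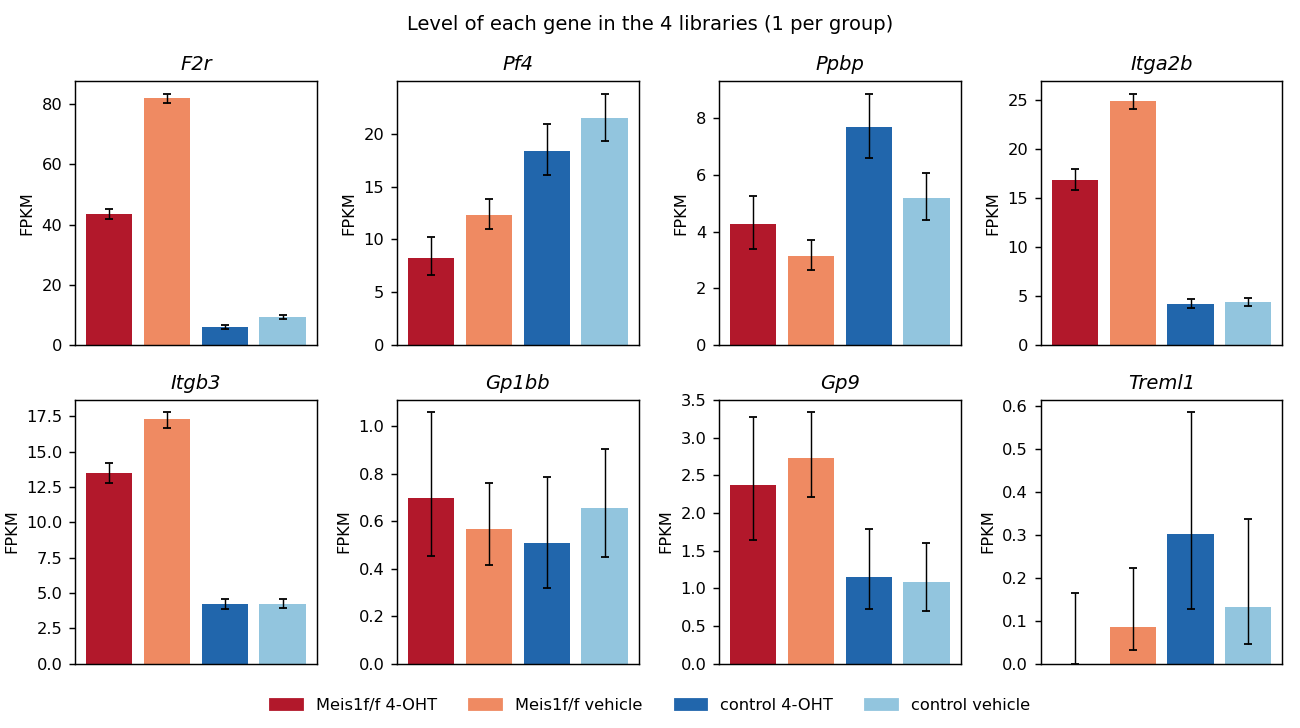
FPKM of each gene on its own linear axis, with 1 bar per library in the order Meis1f/f 4-OHT, Meis1f/f vehicle, control 4-OHT and control vehicle, and 95% exact counting intervals as error bars. F2r, Itga2b, Itgb3 and Gp9 stand higher in both Meis1f/f libraries than in both control libraries, Pf4 and Ppbp lower, and Gp1bb and Treml1 stay under 1 FPKM.

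The integrin chains behaved alike. Itga2b, the alpha chain (CD41), was at 16.9 FPKM in Meis1f/f 4-OHT, 24.9 FPKM in Meis1f/f vehicle, 4.21 FPKM in control 4-OHT and 4.37 FPKM in control vehicle cells. Itgb3, its beta partner (CD61), was at 13.5 FPKM in Meis1f/f 4-OHT, 17.3 FPKM in Meis1f/f vehicle, 4.22 FPKM in control 4-OHT and 4.25 FPKM in control vehicle cells. For both chains the Meis1f/f libraries were high, and the control libraries were low and differed from each other by less than counting error.

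Under vehicle the genotype ratio was 5.7 for Itga2b (5.15 to 6.31) and 4.06 for Itgb3 (3.75 to 4.41). Under 4-OHT it was 4.02 for Itga2b (3.55 to 4.57) and 3.2 for Itgb3 (2.89 to 3.54). The 4-OHT level was 0.681 of the vehicle level for Itga2b in Meis1f/f cells (0.636 to 0.729), against 0.965 in control cells (0.831 to 1.12). For Itgb3 these ratios were 0.782 in Meis1f/f cells (0.736 to 0.831) and 0.994 in control cells (0.887 to 1.11). Per length, the chains were close to equal in control cells, where the Itga2b to Itgb3 ratio was 0.998 under 4-OHT and 1.03 under vehicle, and Itga2b was the higher in Meis1f/f cells, with 1.26 under 4-OHT and 1.44 under vehicle. The excess of the alpha chain in Meis1f/f over control cells was a factor of 1.4 under vehicle (95% counting interval by a normal approximation 1.23 to 1.59) and 1.26 under 4-OHT (1.07 to 1.48).

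The glycoproteins of the von Willebrand factor receptor were all low. Gp9, which holds the GPIb-IX-V complex together, was at 2.37 FPKM in Meis1f/f 4-OHT, 2.73 FPKM in Meis1f/f vehicle, 1.15 FPKM in control 4-OHT and 1.08 FPKM in control vehicle cells. Its genotype ratio was 2.53 under vehicle (1.61 to 4.09) and 2.06 under 4-OHT (1.14 to 3.64), resting on an estimated 20.6 to 95 reads per library. Its 4-OHT to vehicle ratio had a counting interval that included 1 in each genotype, 0.569 to 1.28 in Meis1f/f and 0.575 to 2.01 in control cells. Gp1bb, the beta chain of GPIb, was at 0.7 FPKM in Meis1f/f 4-OHT, 0.567 FPKM in Meis1f/f vehicle, 0.508 FPKM in control 4-OHT and 0.656 FPKM in control vehicle cells, and differences at this depth were within counting error in all 4 comparisons. The Gp1bb row also overlaps that of Sept5, the neighbouring septin gene, by 593 bases. Sept5 was at 6.62 to 11.1 FPKM and strandedness is not given in any label or header, so Gp1bb values are uncertain.

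Of the other chains of that complex, Gp1ba, the alpha chain that binds von Willebrand factor, was at 2 FPKM in Meis1f/f 4-OHT, 3.35 FPKM in Meis1f/f vehicle, 0.79 FPKM in control 4-OHT and 0.377 FPKM in control vehicle cells. Gp5, the thrombin-cleaved chain, was at 1.87 FPKM in Meis1f/f 4-OHT, 3.54 FPKM in Meis1f/f vehicle, 0.732 FPKM in control 4-OHT and 1.06 FPKM in control vehicle cells. Gp1ba, Gp5 and Gp9 thus were each higher in both Meis1f/f libraries than in both control libraries, and Gp1bb was not separated by genotype. Treml1, a receptor stored in platelet alpha granules, was listed at 0 in Meis1f/f 4-OHT cells, where 3 reads would be worth 0.135 FPKM. It was at 0.0862 FPKM in Meis1f/f vehicle, 0.302 FPKM in control 4-OHT and 0.132 FPKM in control vehicle cells. The highest of these rests on an estimated 8.15 reads, so no order was read from Treml1.

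The chemokines ran the other way. Pf4, platelet factor 4 (Cxcl4), was at 8.28 FPKM in Meis1f/f 4-OHT, 12.3 FPKM in Meis1f/f vehicle, 18.4 FPKM in control 4-OHT and 21.5 FPKM in control vehicle cells. It was the most abundant of the 8 genes in both control libraries, and both Meis1f/f libraries lay below them. Ppbp, whose product is processed to the neutrophil-attracting chemokine Cxcl7, was at 4.25 FPKM in Meis1f/f 4-OHT, 3.14 FPKM in Meis1f/f vehicle, 7.68 FPKM in control 4-OHT and 5.17 FPKM in control vehicle cells. The Meis1f/f libraries again lay below both control libraries, but here the 4-OHT library was the higher in each genotype.

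The Meis1f/f level of Pf4 was 0.572 of the control level under vehicle (0.49 to 0.669) and 0.449 of it under 4-OHT (0.349 to 0.576). For Ppbp these ratios were 0.608 under vehicle (0.48 to 0.762) and 0.553 under 4-OHT (0.423 to 0.722). With 4-OHT, Ppbp was at 1.35 times the vehicle level in Meis1f/f cells (1.03 to 1.79) and 1.48 times in control cells (1.19 to 1.84). Pf4 was at 0.673 of the vehicle level in Meis1f/f cells (0.526 to 0.854), while its ratio of 0.857 in control cells had an interval that reached 1 (0.724 to 1.01). The Pf4 to Ppbp ratio was accordingly lower in the 4-OHT library of each genotype, at 1.95 in Meis1f/f 4-OHT against 3.91 in Meis1f/f vehicle cells, and at 2.4 in control 4-OHT against 4.16 in control vehicle cells. That is a factor of 0.499 in Meis1f/f cells (95% counting interval by a normal approximation 0.349 to 0.713) and 0.577 in control cells (0.441 to 0.755), which overlap. The genotype moved the ratio by factors whose intervals included 1, at 0.941 under vehicle (0.717 to 1.23) and 0.813 under 4-OHT (0.57 to 1.16).

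Pf4 and Ppbp lie in a chemokine cluster on chromosome 5, at 91201461 to 91202409 and 91197544 to 91199086 in the deposited coordinates, 2375 bases apart. Their neighbours differed from them. Cxcl3, a neutrophil chemokine 12720 bases after Pf4, was at 1.12 FPKM in Meis1f/f 4-OHT, 7.65 FPKM in Meis1f/f vehicle, 1.18 FPKM in control 4-OHT and 1.37 FPKM in control vehicle cells. Cxcl2, farther along, was at 1.28 FPKM in Meis1f/f 4-OHT, 4.98 FPKM in Meis1f/f vehicle, 1.07 FPKM in control 4-OHT and 1.26 FPKM in control vehicle cells. Both were high in the Meis1f/f vehicle library alone, which was also the library of lane 1 and the deepest; the part of lane or depth was not tested. Cxcl5, Cxcl15 and Cxcl1 stayed at or under 0.145 FPKM in all 4 libraries. F2r lies on chromosome 13 at 96371744 to 96388388, between F2rl1 and, 8744 bases on, Iqgap2, whose span contains F2rl2. Iqgap2, a scaffold protein of the cytoskeleton, was at 20.6 FPKM in Meis1f/f 4-OHT, 18 FPKM in Meis1f/f vehicle, 13.2 FPKM in control 4-OHT and 11.4 FPKM in control vehicle cells, a genotype ratio of 1.58 under vehicle (1.5 to 1.67).

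**Figure D2:**
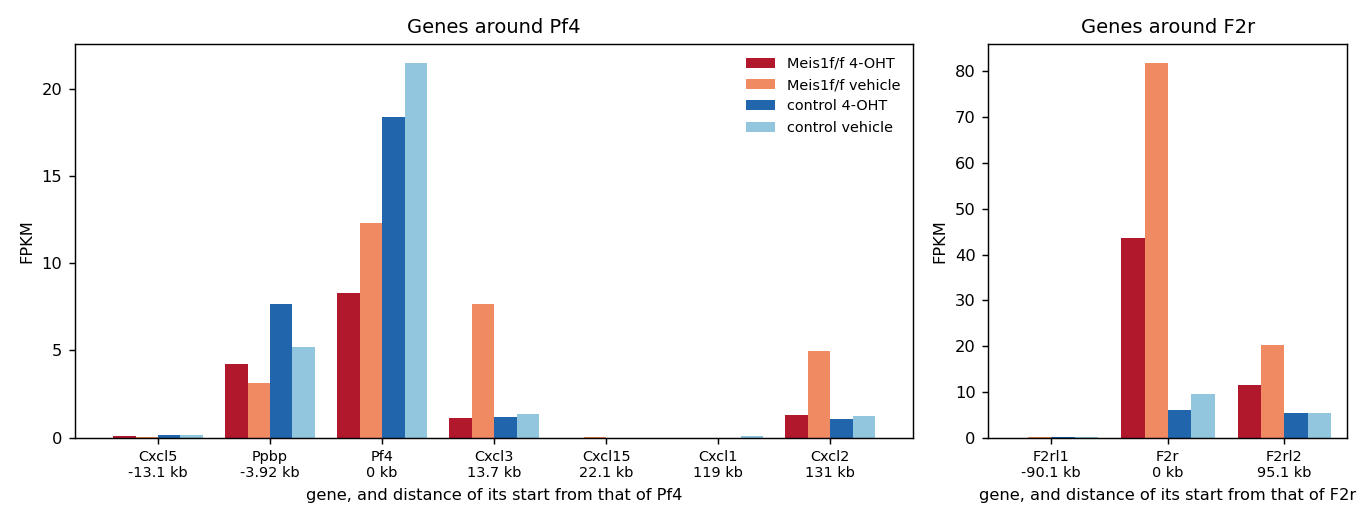
FPKM of the chemokine genes around Pf4 (left) and of the protease-activated receptor genes around F2r (right), in order of position with the distance of each start in kb, with 1 bar per library. Cxcl3 and Cxcl2 are high in Meis1f/f vehicle cells only, at 7.65 and 4.98 FPKM, while Pf4 and Ppbp are lower in both Meis1f/f libraries than in both control libraries.

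The other members had neighbours at other levels. Itga2b (chromosome 11, 102314611 to 102331197 as deposited) lies between Fam171a2, at or under 0.226 FPKM, and Gpatch8, whose genotype ratio was 1.24 under vehicle (1.17 to 1.32) and 0.933 under 4-OHT (0.85 to 1.02). Itgb3 (chromosome 11, 104469314 to 104531785) lies between Myl4, at or under 0.39 FPKM, and Efcab3, listed at 0 in all 4 libraries. Gp9 (chromosome 6, 87728130 to 87729756) precedes Rab43, a trafficking GTPase, whose genotype ratios of 1.45 under vehicle (1.34 to 1.56) and 1.48 under 4-OHT (1.33 to 1.65) went the same way as those of Gp9. Treml1 (chromosome 17, 48499241 to 48506471) lies next to Trem2, a myeloid receptor at 8.37 to 15.6 FPKM, so the gene at 0 to 0.302 FPKM has an abundant neighbour. Gp1bb is on chromosome 16 at 18620412 to 18622496. Of the genes on either side of Itga2b and Itgb3, Gpatch8 alone reached 1 FPKM, and its genotype ratios were below those of both integrin genes.

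Between genotypes, differences were taken on the log2(FPKM + 1) scale, where those of low genes come out too small, and a gene counted as higher or lower from a size of 1 upwards. Under vehicle, 3 of the 6 members at 1 FPKM were higher in Meis1f/f cells, F2r by 2.99, Itga2b by 2.27 and Itgb3 by 1.80, and of the 10922 genes at 1 FPKM 5.84% were. No member was lower by the same measure, against 2.11% of all genes. The other 3 members differed by 0.84 for Gp9, -0.58 for Ppbp and -0.76 for Pf4. Under 4-OHT, a comparison of separate libraries, the same 3 genes were higher in Meis1f/f cells, F2r by 2.66, Itga2b by 1.78 and Itgb3 by 1.47, against 3.72% of all genes, and 1 member was lower, Pf4 at -1.07, against 1.61% of all genes. Gp9 was at 0.65 and Ppbp at -0.73. The 6 members kept their signs in both pairs of libraries, and each difference except those of Pf4 and Ppbp was smaller under 4-OHT.

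The median difference of the 6 members was 1.32 under vehicle and 1.06 under 4-OHT, while the medians of all 10922 genes were -0.06 and 0.00. Transcript length went with the difference under vehicle: across those genes Spearman's rho of length with the difference was 0.25 under vehicle and 0.03 under 4-OHT (a description across genes, which are not replicates). The members that were higher are long, at 3296 bases for F2r, 3437 bases for Itga2b and 5779 bases for Itgb3, and those that were lower are short, at 588 bases for Pf4 and 1080 bases for Ppbp. Gp9 is short as well, at 811 bases, and had a difference above 0. With the length trend removed, the number past the size measure was 4 under vehicle, Gp9 being added at 1.07, and 4 under 4-OHT. Summed over the 8 genes, the level was 89.6 FPKM in Meis1f/f 4-OHT, 143 FPKM in Meis1f/f vehicle, 42.6 FPKM in control 4-OHT and 46.6 FPKM in control vehicle cells, and F2r was the largest single contribution in both Meis1f/f libraries.

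**Figure D3:**
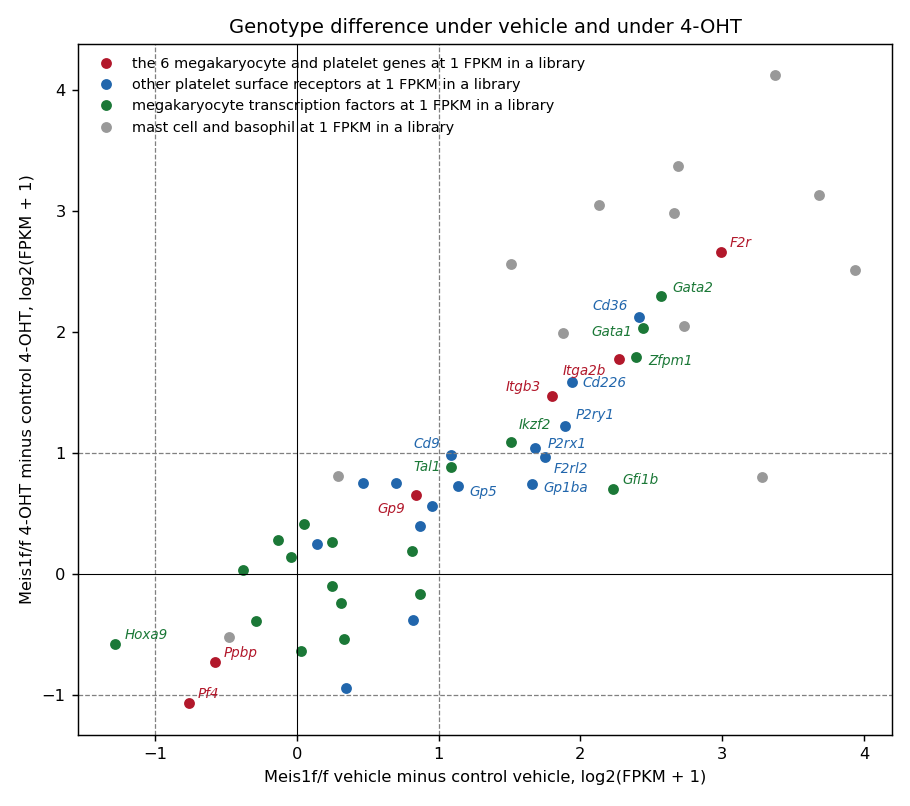
Each point is a gene, with the Meis1f/f minus control difference in log2(FPKM + 1) under vehicle on the x axis and under 4-OHT on the y axis, and dashed lines at the size of 1 used for counting. F2r, Itga2b and Itgb3 (red) lie in the upper right among GATA factors, platelet receptors and mast cell and basophil genes, and Pf4 and Ppbp lie in the lower left; Gata2, which is on 2 lists, is drawn as a transcription factor.

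Other platelet surface receptors showed the same direction more often than the opposite. Of 24 listed, 15 reached 1 FPKM; 8 of these were higher and 0 lower in Meis1f/f cells under vehicle, and 4 were higher and 0 lower under 4-OHT. P2ry1, an ADP receptor, was at 8.58 FPKM in Meis1f/f 4-OHT, 22 FPKM in Meis1f/f vehicle, 3.12 FPKM in control 4-OHT and 5.23 FPKM in control vehicle cells. P2rx1, an ATP-gated channel, was at 16.7 FPKM in Meis1f/f 4-OHT, 19.8 FPKM in Meis1f/f vehicle, 7.59 FPKM in control 4-OHT and 5.46 FPKM in control vehicle cells. Cd36, a scavenger receptor also made by other myeloid cells, was at 11.1 FPKM in Meis1f/f 4-OHT, 6.54 FPKM in Meis1f/f vehicle, 1.79 FPKM in control 4-OHT and 0.422 FPKM in control vehicle cells. The fourth receptor higher under both treatments was Cd226, an adhesion receptor, by 1.94 under vehicle and 1.59 under 4-OHT. Cd9, a tetraspanin and the most abundant gene of the list, was at 199 FPKM in Meis1f/f 4-OHT, 252 FPKM in Meis1f/f vehicle, 100.3 FPKM in control 4-OHT and 118 FPKM in control vehicle cells. The 9 receptors that stayed under 1 FPKM in all 4 libraries included Gp6, Clec1b, P2ry12, Tbxa2r and Itga2.

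Transcription factors of the lineage were divided. Of 20 listed, 19 reached 1 FPKM; under vehicle 6 were higher in Meis1f/f cells and 1, Hoxa9 at -1.28, was lower, and under 4-OHT 4 were higher and 0 lower. Gata2 was at 54.6 FPKM in Meis1f/f 4-OHT, 105 FPKM in Meis1f/f vehicle, 10.3 FPKM in control 4-OHT and 16.9 FPKM in control vehicle cells. Gata1, the master factor of red cells and megakaryocytes, was at 12.3 FPKM in Meis1f/f 4-OHT, 19.8 FPKM in Meis1f/f vehicle, 2.24 FPKM in control 4-OHT and 2.82 FPKM in control vehicle cells. Zfpm1, the GATA1 cofactor FOG1, was at 8.14 FPKM in Meis1f/f 4-OHT, 18.6 FPKM in Meis1f/f vehicle, 1.65 FPKM in control 4-OHT and 2.74 FPKM in control vehicle cells. These 3 genes ran over the 4 libraries in the same order as F2r, as did Itga2b and Itgb3. The order of the control libraries was within counting error for Gata1 (4-OHT to vehicle ratio 0.607 to 1.05), Itga2b and Itgb3. Gata2, Gata1 and Zfpm1 were higher under both treatments, as was Ikzf2, by 1.51 under vehicle and 1.09 under 4-OHT. Fli1, an ETS factor of megakaryocytes, was at 37.5, 31.8, 30.6 and 35 FPKM in Meis1f/f 4-OHT, Meis1f/f vehicle, control 4-OHT and control vehicle cells, and Nfe2, needed for platelet release, at 90.8, 107, 97.5 and 89.6 FPKM in the same libraries. Fli1 and Nfe2 thus were abundant in all libraries and little separated by genotype.

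Granule, signalling and cytoskeleton genes were counted in the same way. Of 19 alpha granule and secreted proteins 14 reached 1 FPKM; 3 were higher and 1 lower in Meis1f/f cells under vehicle, and 0 were higher and 4 lower under 4-OHT. F13a1, the clotting factor XIII A chain that monocytes also make, was at 37.5 FPKM in Meis1f/f 4-OHT, 115 FPKM in Meis1f/f vehicle, 284 FPKM in control 4-OHT and 237 FPKM in control vehicle cells, lower in both Meis1f/f libraries, as Pf4 was. Vwf, which GPIb binds, was at 0.807 to 2.29 FPKM. Of 18 integrin signalling genes, all at 1 FPKM in a library, 5 were higher and 0 lower under vehicle, and 3 were higher and 0 lower under 4-OHT. Of 10 proplatelet cytoskeleton genes at 1 FPKM, 3 were higher and 0 lower under vehicle, and 0 were higher or lower under 4-OHT.

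Markers of some other cell types moved with the members that were higher, and those of others did not. The 12 neutrophil markers had medians of -0.24 under vehicle and -0.10 under 4-OHT, with 1 higher and 0 lower under vehicle. Monocyte and macrophage markers had medians of -0.07 under vehicle and -0.21 under 4-OHT. Of 13 mast cell and basophil markers at 1 FPKM, 11 were higher in Meis1f/f cells under vehicle and 10 under 4-OHT, and 0 were lower, with medians of 2.66 and 2.51. Their summed level was 2076 FPKM in Meis1f/f 4-OHT, 2602 FPKM in Meis1f/f vehicle, 247 FPKM in control 4-OHT and 269 FPKM in control vehicle cells. Mcpt8, a basophil protease, made up much of it, at 987 FPKM in Meis1f/f 4-OHT, 1466 FPKM in Meis1f/f vehicle, 112 FPKM in control 4-OHT and 113 FPKM in control vehicle cells. The mast cell protease Mcpt4 was listed at 0 in control 4-OHT cells and the tryptase Tpsab1 in both control libraries. Of 11 erythroid markers at 1 FPKM, 9 were higher and 1 lower in Meis1f/f cells under vehicle, and 9 were higher and 0 lower under 4-OHT. Their summed level was 523 FPKM in Meis1f/f 4-OHT, 426 FPKM in Meis1f/f vehicle, 212 FPKM in control 4-OHT and 256 FPKM in control vehicle cells, and Alas2 and Slc4a1 stayed under 1 FPKM. Tfrc, the most abundant gene of that list, made up much of the sum in control cells. It was at 172 FPKM in Meis1f/f 4-OHT, 132 FPKM in Meis1f/f vehicle, 171 FPKM in control 4-OHT and 144 FPKM in control vehicle cells. The globin row Beta-s, whose reads may be shared with near-identical copies, was at 226 FPKM in Meis1f/f 4-OHT, 195 FPKM in Meis1f/f vehicle, 25.9 FPKM in control 4-OHT and 83.2 FPKM in control vehicle cells. Hbb-b1 and Hba-a1, under the same limit, were likewise higher in both Meis1f/f libraries than in both control libraries. Hba-a2, also under that limit, went the other way under vehicle (-1.92) and was the erythroid gene counted as lower. It was at 1.71 FPKM in Meis1f/f 4-OHT, 0.0018 FPKM in Meis1f/f vehicle, 1.38 FPKM in control 4-OHT and 2.78 FPKM in control vehicle cells. Of 5 eosinophil markers at 1 FPKM, 4 were higher under vehicle and 3 under 4-OHT. Endothelial cells also carry F2r and Itgb3. Of 8 endothelial markers, Cdh5, Kdr, Tek, Esam and Emcn stayed under 1 FPKM in all 4 libraries. The other 3, Pecam1, Tie1 and Vwf, reached 1 FPKM. All 3 lay above 0 in both genotype comparisons, with medians of 0.69 under vehicle and 0.81 under 4-OHT, and 0 passed the size measure. Pecam1 was at 19.2 to 34.3 FPKM. Tie1 was low, and its genotype ratio was 2.61 under vehicle (1.99 to 3.47) and 4.11 under 4-OHT (2.75 to 6.31). The part of mast cell, basophil, erythroid, eosinophil or endothelial content in the levels of F2r, Itga2b and Itgb3 was not tested.

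With 4-OHT, no member passed the size measure in either genotype. In Meis1f/f cells 0 of 6 did, against 3.91% of all genes in either direction. The differences were -0.89 for F2r, -0.53 for Itga2b, -0.52 for Pf4, -0.33 for Itgb3, -0.15 for Gp9 and 0.34 for Ppbp, so 1 of 6 lay above 0, and their median was -0.43, against 0.11 for all genes, of which 39.3% lay below 0. In control cells 0 of 6 did, against 2.25%, and the differences were -0.56 for F2r, -0.21 for Pf4, -0.04 for Itga2b, -0.01 for Itgb3, 0.05 for Gp9 and 0.49 for Ppbp, with a median of -0.02 against 0.05 for all genes. F2r was the lowest and Ppbp the highest of the 6 in each genotype. In Meis1f/f cells the genes past the size measure were 41.7% higher and the rest lower as deposited, but 23.8% higher after median ratio rescaling, which moved the median of all genes by -0.12 and took F2r to -1.03. For integrin chains the counting intervals of the 4-OHT to vehicle ratio excluded 1 in Meis1f/f cells and included it in control cells.

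The difference of the 4-OHT effects, Meis1f/f minus control, was below 0 for all 6 members and reached a size of 1 for 0 of them, against 5.74% of all genes. It was -0.49 for Itga2b, -0.33 for F2r, -0.33 for Itgb3, -0.31 for Pf4, -0.20 for Gp9 and -0.15 for Ppbp. For Pf4, Ppbp and Gp9 the counting intervals of the 4-OHT to vehicle ratio overlapped between the genotypes. Their sign was thus not separated from counting error. For F2r, Itga2b and Itgb3 the intervals did not overlap, but they leave out the variation between cultures. The median of the difference was -0.32 in the members and 0.06 over all genes, of which 45.3% lay below 0. This value uses all 4 libraries, among them the Meis1f/f vehicle library of lane 1, and length went with it as well (Spearman's rho -0.26 over 10922 genes). Other platelet receptors gave a median of -0.41, with P2ry1 at -0.67 and F2rl2 at -0.78, and lineage transcription factors -0.35. The share of higher genes among those past the size measure was 36.8% as deposited and 26.7% after median ratio rescaling.

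**Figure D4:**
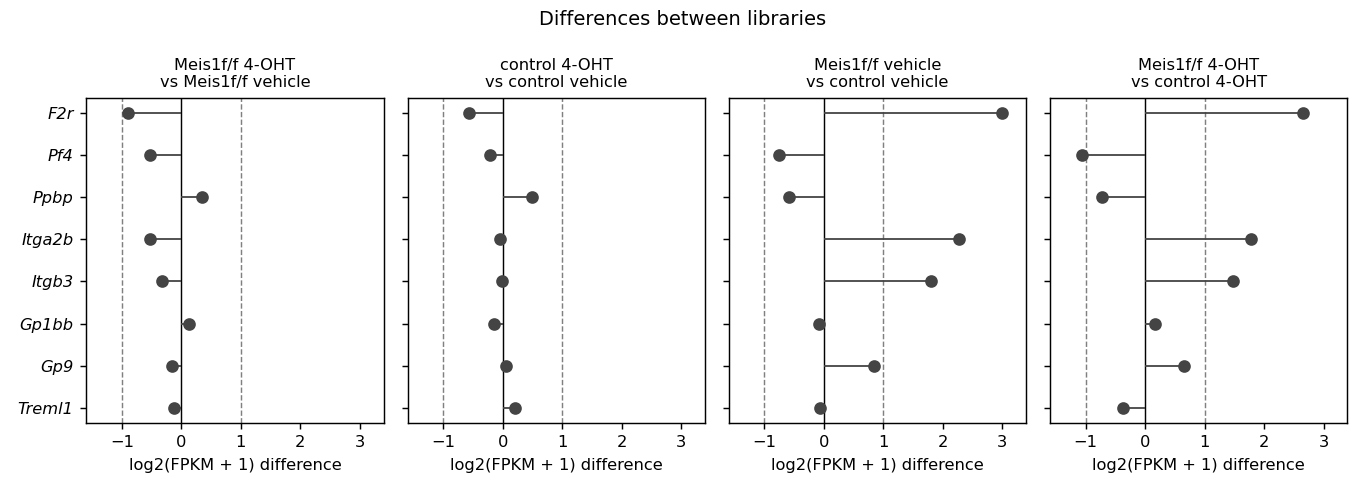
Differences in log2(FPKM + 1) of the 8 genes in the 4 comparisons, each panel naming its pair of libraries, with dashed lines at the size of 1 used for counting. With 4-OHT all points lie between the dashed lines, and between genotypes F2r, Itga2b and Itgb3 lie right of them in both panels while Pf4 reaches -1.07 under 4-OHT.

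Genes with a like course over the 4 libraries were named by the smallest Euclidean distance over the 3 log2(FPKM + 1) differences from the control vehicle library, among 7704 genes with at least 5 FPKM in a library. For F2r they were Cdkn2b, a cell cycle inhibitor (distance 0.24), Akr1c18, a steroid-converting enzyme (0.40), and Hgf, a growth factor (0.45). Cdkn2b was at 7.11 FPKM in Meis1f/f 4-OHT, 13.1 FPKM in Meis1f/f vehicle, 0.507 FPKM in control 4-OHT and 0.954 FPKM in control vehicle cells. For Itga2b they were Mrgpra6 (0.16), Tiam1 (0.23) and Aqp9 (0.23), and for Itgb3 they were Mboat1 (0.19), Nckap1 (0.22) and Sla2 (0.28). For Pf4 they were Ccng2 (0.09), Vcan (0.19) and Lars2 (0.20), for Ppbp they were Alg14 (0.09), Impa2 (0.15) and Plxnb2 (0.15), and for Gp9 they were Prr13 (0.05) and Cd84 (0.07). None of the genes named in this way is one of the 8, and the distances of F2r were the largest. Gp9, Gp1bb and Treml1 did not reach 5 FPKM in any library, so they could not have been named.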

How the data were processed

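RNA sequencing of 4 libraries, 1 per group, was used as deposited. Bowtie and the build mm8 are named, per the submitters' processing notes. No source used here gives versions, annotation, strandedness or the quantifying tool. Per the labels' protocols the serum content was 10% or 20%, depending on the field. FPKM and coverage (a signal of mean depth per base, not scaled between libraries) were computed by the authors per transcript, per the file headers. Deposited starts count from 0 (in 3284 rows end minus start equals the length, in 0 rows after adding 1) and were raised by 1; positions are as deposited, and whether they follow mm8 was not settled.

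Coverage divided by FPKM was constant within a library. Coverage times length peaked in the bins from 40 and from 85 bases, so 1 read was taken as 45.1 to 45.4 bases, which gave depth and estimated reads. FPKM values were not whole multiples of a read, so no count test was run. Ratios carry 95% exact (Clopper-Pearson) intervals from estimated reads; these and the 3-read floor cover counting error only, and PCR copies are not independent molecules. Ratios of ratios use a normal approximation on the log scale.

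Rows marked OK in all 4 libraries were used (394 were not), the row with the highest mean FPKM stood for a symbol, and genes needed 1 FPKM in a library (10922 genes). Only Gp1bb had more than 1 row among the 8 genes, and the sum of its rows differed in control vehicle cells alone, at 0.769 FPKM. Differences used a pseudocount of 1. Computation used Python 3.11.15, pandas 2.3.3, numpy 2.4.6 and scipy 1.17.1 and was tested on simulated data. The 9 alternatives were pseudocounts of 0.1 and 5, no floor, a floor of 5 FPKM, summed rows, median ratio and upper quartile rescaling, removal of the length trend over 10 length bins, and all rows whatever their status.

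The 14 gene lists, the members among them, were chosen with earlier results of these data known. Named were the members, Meis1, their neighbours, the 3 most similar genes of each member at 1 FPKM, and in each list up to 8 genes with 5 FPKM in a library and a difference of at least 1 in size, plus the most abundant. Gp1ba, Gp5, F2rl1, F2rl3, Cd226, Ikzf2, Fli1, Vwf, Tie1, Hba-a2, Cxcl1, Cxcl2, Cxcl5, Cxcl15 and the genes named as under 1 FPKM were chosen after their values were seen. Of the lists, 2 signalling genes (Syk and Bin2), Diaph1, Sptb and Adgre1 matched no row. The stem and progenitor list (12 genes, 9 at 1 FPKM) had 2 higher and 2 lower in Meis1f/f cells under vehicle and 3 higher under 4-OHT; the monocyte and macrophage list (11 at 1 FPKM) had 1 higher under vehicle, and 1 higher and 1 lower under 4-OHT. Several genes are on more than 1 list. Some genes that the rule or the lists hold are not reported here.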

Additional observations from a re-analysis of the deposited data

Results flagged for a closer look

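None of the 8 genes was flagged. In 10 genes of the surrounding lists the 4-OHT difference had opposite signs in the 2 genotypes, with counting intervals that excluded 1 in each, and the difference of the effects (Meis1f/f minus control, log2(FPKM + 1)) reached 1 in size. With 1 library per group this difference was not tested. Among secreted platelet proteins it was -4.82 for Thbs1 (thrombospondin 1), at 20.8 FPKM in Meis1f/f 4-OHT, 521 FPKM in Meis1f/f vehicle, 427 FPKM in control 4-OHT and 362 FPKM in control vehicle cells, and -1.85 for F13a1. Among genes that link integrins to the cytoskeleton it was -1.36 for Tln1 (talin, which binds the Itgb3 tail), -1.64 for Myh9 (non-muscle myosin), -1.25 for Zyx and -1.31 for Flna (filamin, which binds Gp1ba). Among erythroid genes it was 1.86 for Beta-s, a beta globin row whose reads may be shared with its near-identical copies, and 1.49 for Car1, which was at 0.002 FPKM in control 4-OHT cells. Among progenitor genes it was 1.26 for Cd34 and 1.52 for Sox4. Tln1, Myh9, Zyx and Flna were each highest in the Meis1f/f vehicle library, the library of lane 1. Tln1, Myh9 and Flna are also long, at 8560, 7371 and 8347 bases, and over all genes this difference fell with length (Spearman's rho -0.26). The part of lane or length was not tested.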

How the results depend on the processing

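Of 275 values of the 8 genes recomputed under the 9 alternatives, 271 kept their side of the size of 1. A reversal of sign was counted only where the reported size was at least 1, and 0 occurred. The changes of floor, the summed rows and the use of all rows cannot alter the value of a gene with 1 row marked OK. Much of this count was thus fixed in advance. The number of members past the size of 1 differed from the reported number by more than 1.5 times in 1 case. With 4-OHT in Meis1f/f cells it was 1 after median ratio rescaling, where F2r was at -1.03. The other moved values were Gp9 at 1.26 (pseudocount 0.1) and 1.07 (length trend removed) between genotypes under vehicle, and Pf4 at -0.82 (pseudocount 5) between genotypes under 4-OHT. The difference of the 4-OHT effects stayed below 0 for F2r (-0.45 to -0.28), Itga2b (-0.58 to -0.42), Itgb3 (-0.42 to -0.11), Pf4 (-0.59 to -0.20), Ppbp (-0.38 to -0.13) and Gp9 (-0.48 to -0.09) under all 9 alternatives in which they were kept. All alternatives use the same 4 libraries and do not address counting error. Over all named genes 2815 of 2885 values kept their side and 0 reversed, counted in the same way and under the same limit.

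Counts over all genes depended on the pseudocount. With 0.1 and with 5, the genes higher were 423 and 38 for 4-OHT in Meis1f/f cells (178 as reported), 479 and 13 for 4-OHT in control cells (150), 1052 and 237 between genotypes under vehicle (638), 646 and 150 between genotypes under 4-OHT (406), and 430 and 53 for the difference of the effects (231). The genes lower were 433 and 72 (249 as reported), 203 and 20 (96), 398 and 55 (230), 338 and 51 (176), and 718 and 109 (396) in the same order. For 4-OHT in Meis1f/f cells, 113 were higher after median ratio rescaling and 103 after the length trend was removed. A floor of 5 FPKM left 92 higher for 4-OHT in control cells, 262 higher and 106 lower between genotypes under 4-OHT, and 242 lower for the difference of the effects, and summed rows gave 63 lower for 4-OHT in control cells. No paired analysis was possible because each group was 1 library without a replicate number. Leaving out a library was not possible for the same reason. Depth limited Gp1bb, Gp9 and Treml1, on fewer than 100 estimated reads in every library, and Pf4 (89 estimated reads) and Ppbp (83.9) in Meis1f/f 4-OHT cells.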
